A study of Mus musculus with 6 samples.

Results

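The genes described here encode the machinery that starts transcription of protein-coding genes. They are the protein-coding genes whose symbols name a Mediator subunit (Med), a subunit of RNA polymerase II (Polr2a to Polr2m), the general transcription factors TFIIA, TFIIB, TFIIE, TFIIF and TFIIH (Gtf2a, Gtf2b, Gtf2e, Gtf2f and Gtf2h), or a TATA-binding protein associated factor (Taf). The symbols came from the GENCODE annotation of GRCm38, and the rule found 79 genes among the 48709 in the table: 30 of Mediator, 13 of the polymerase, 13 of the general factors and 23 TAF genes. Of these, 76 had enough counts to be tested. The germ cell paralogs Gtf2a1l and Taf7l had 0 counts in each of the 6 libraries, and Med12l, the paralog of Med12, had 1 count, in a CTRL library.

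The RNA came from G1E-ER4 cells, a mouse line of red cell precursors without a working Gata1 gene of their own. A GATA1 joined to part of the estrogen receptor was put back into them, and it acts once tamoxifen is given, when the precursors begin to mature. Both groups carried the fusion and received tamoxifen, a Tat nuclear localization sequence on their peptide, Kit ligand and erythropoietin. The CHD4-APR group was given the Tat peptide with the aggregation-prone stretch of the C-terminus of CHD4, the ATPase of the NuRD and ChAHP complexes, and the CTRL group a Tat peptide with a stretch of alanines. Both peptides were used at 10 µM for 2 h before 28 h of tamoxifen, whose concentration is given as 100 nM for the culture and as 100 µM for the RNA-Seq experiment. Each group had 3 libraries of poly(A) RNA from this 1 line. The labels do not say that the replicates were separate cultures, so the p-values measure the spread between these libraries, which may be technical.

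Mediator is a large complex that carries signals from DNA-bound activators to RNA polymerase II. Its head and middle modules touch the polymerase, its tail meets activators, Med14 is the scaffold that joins them, and a separate kinase module with Med12, Med13, CDK8 or CDK19 and cyclin C binds and leaves the core reversibly. TFIID, formed by TBP and TAF proteins, recognizes the core promoter, after which TFIIA, TFIIB, the polymerase with TFIIF, TFIIE and TFIIH assemble. In erythroid cells Med1 is known as a partner of GATA1, and globin genes come to dominate the messenger RNA as the cells mature.

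The libraries held 41687482 to 49784177 counts. Normalized CPM, counts scaled by the size of the library and its TMM factor from edgeR, were summed over marker lists to check the label of the cells. The 10 erythroid markers summed to 69558 to 74994 CPM in CTRL and to 58820 to 62881 in CHD4-APR, and none of them was at 0. Myeloid markers summed to at most 4.72 CPM, megakaryocyte markers to 41.2 to 50.2, and mast cell and lymphoid markers to at most 0.446 and 0.604. The markers Mpo, Mcpt8, Cd3e, Pou5f1 and Nanog were at 0 in every library. Hemoglobin genes took 6.04% to 6.45% of the counts in the CTRL group and 5.11% to 5.44% in the CHD4-APR group, and with these genes left out of the fit the members called were the same 15 higher and 25 lower ones as below.

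Of the 76 members tested, 40 passed a false discovery rate (FDR, Benjamini-Hochberg over 12722 genes in edgeR's quasi-likelihood test) of 0.05, against 38.3% of all genes. The CHD4-APR libraries were higher for 15 members (19.7%) and lower for 25 (32.9%), where the shares of all genes were 20.4% and 17.8%. The share of members called higher was thus near that of all genes, and the share called lower was above it. Each comparison was also fitted with each library's trend in transcript length and GC content removed, called here the trend-removed fit, where 10 members (13.2%) were higher and 15 (19.7%) lower, against 13.7% and 12.7% of all genes. Without CHD4-APR replicate 2, 14 members (18.4%) were lower, against 11.8% of all genes. The median log2 fold change was -0.087 over the members and -0.012 over all genes. Most differences were small: the called members moved by 0.14 to 0.65 on the log2 scale upwards and fell by 0.12 to 0.36 downwards. More than 1.5-fold differences were reached by Med14, Med13 and Taf4b among the higher members and by 0 of the lower ones. All CHD4-APR libraries lay above all CTRL libraries for 18 members and below them for 34, against 25.0% of all genes in each direction. In bulk RNA, fewer cells of a type and less RNA per cell cannot be told apart.

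**Figure D1:**
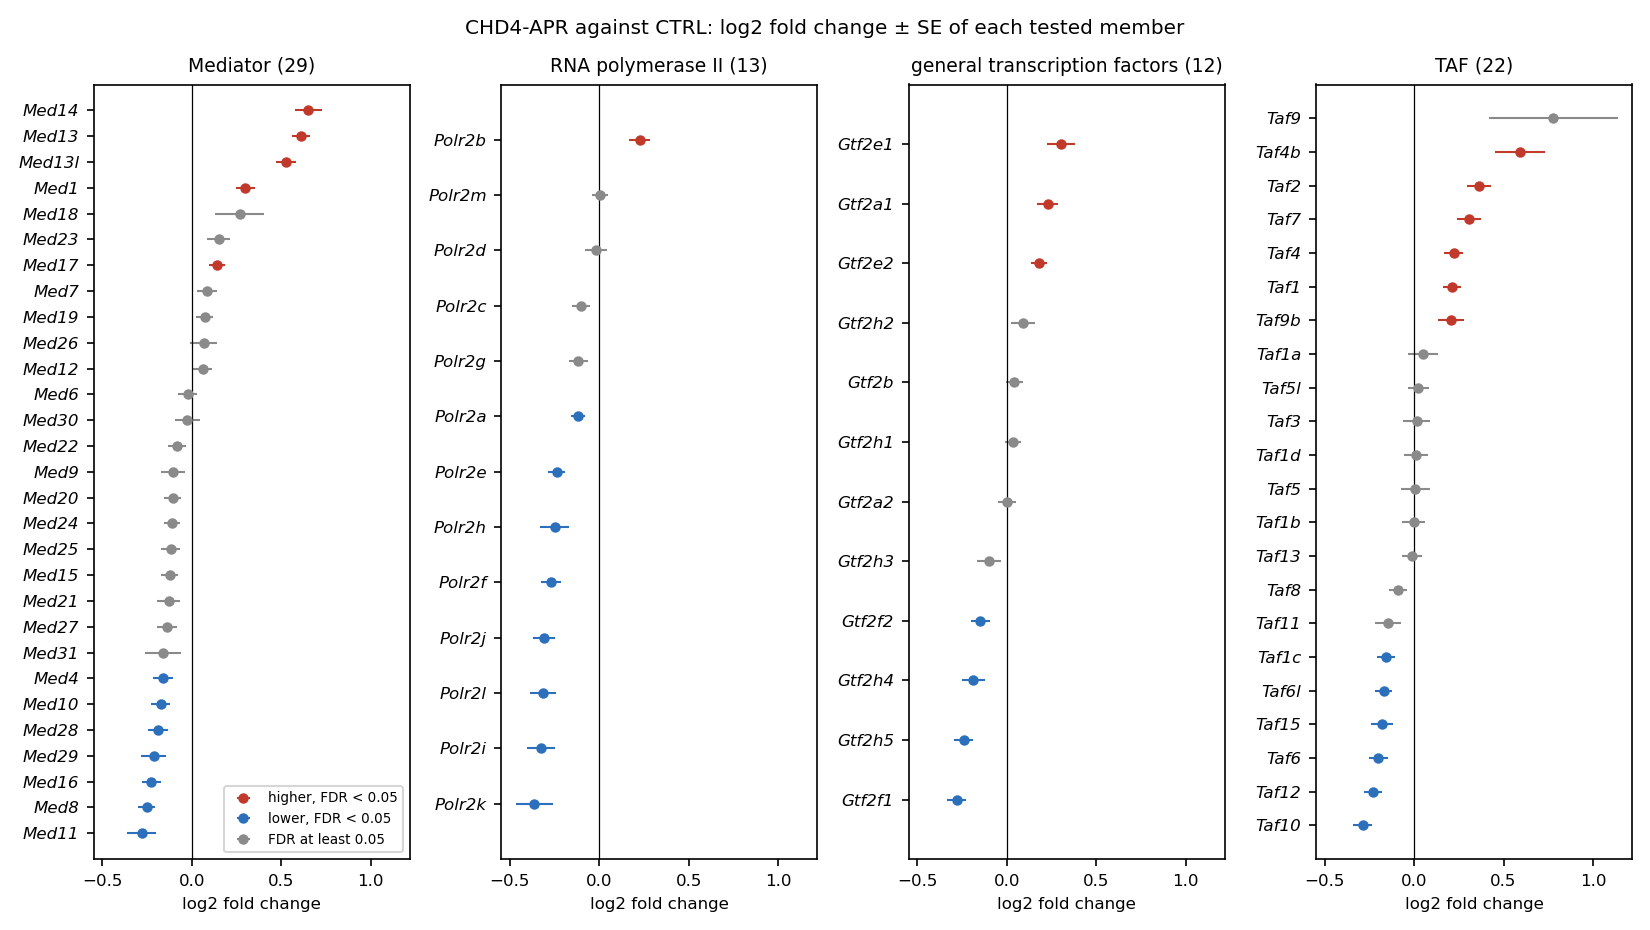
Log2 fold change (CHD4-APR against CTRL, x axis) ± SE of the 76 members tested, in a panel per family and ordered by fold change, from 3 libraries per group. Red points are the 15 members higher and blue points the 25 lower at an FDR under 0.05, and grey points the 36 not called; Polr2b is the red point of the polymerase panel, where 8 of 13 points are blue.

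The promoters of 68 of the 79 members matched the RefSeq table of GRCm38.p6, and 4 are printed because they belong to members on which the results below turn. Med13 and Med14 were higher, and Taf10 and Polr2a lower. Each stretch ends just before the first annotated transcript start, on the strand of the gene, all 4 genes lying on the minus strand. Capitals mark matches on either strand to the motifs searched: the ETS motif CCGGAAG, the GATA motif AGATAA, the SP/KLF motif GGGCGG, the CCAAT box and the TATA box TATAAA. The motifs do not overlap here, and 2 adjoining SP/KLF matches of Med13 share letters.
Med13: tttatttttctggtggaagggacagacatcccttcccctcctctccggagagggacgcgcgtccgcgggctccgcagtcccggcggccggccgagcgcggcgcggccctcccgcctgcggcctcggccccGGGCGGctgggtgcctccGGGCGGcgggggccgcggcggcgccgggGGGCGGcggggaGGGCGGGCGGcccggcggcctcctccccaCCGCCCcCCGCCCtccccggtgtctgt
Med14: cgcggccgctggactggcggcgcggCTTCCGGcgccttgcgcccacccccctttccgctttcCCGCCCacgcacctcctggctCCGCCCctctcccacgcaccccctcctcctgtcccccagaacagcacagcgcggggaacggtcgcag
Polr2a: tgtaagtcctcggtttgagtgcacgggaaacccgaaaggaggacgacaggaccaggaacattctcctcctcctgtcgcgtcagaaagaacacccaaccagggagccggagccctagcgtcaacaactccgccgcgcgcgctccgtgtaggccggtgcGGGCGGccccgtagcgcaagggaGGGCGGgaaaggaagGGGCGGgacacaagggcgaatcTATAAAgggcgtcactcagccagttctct
Taf10: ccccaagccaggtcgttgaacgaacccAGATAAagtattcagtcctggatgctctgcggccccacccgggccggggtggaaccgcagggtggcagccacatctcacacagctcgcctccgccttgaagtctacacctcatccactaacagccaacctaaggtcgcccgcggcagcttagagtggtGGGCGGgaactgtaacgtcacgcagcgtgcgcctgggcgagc
They span chr11:86357603-86357846, chrX:12762074-12762223, chr11:69758638-69758883 and chr7:105744362-105744588. Med13 held 7 matches to the SP/KLF motif, and Polr2a held 3 of them and 1 to the TATA box. Med14 held 1 match to the ETS motif and 2 to the SP/KLF motif, and Taf10 held 1 to the GATA motif and 1 to the SP/KLF motif.

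In the 250 bases before the RefSeq start, members were rich in GC and in CpG. Their median GC content was 58% and their median number of CpG 18.5, against 52.4% and 6 over 32851 promoters of all genes. The SP/KLF motif occurred in 63.2% of the members' promoters and in 32.7% of all, and the ETS motif in 23.5% and 6.91%. The CCAAT box was found in 33.8% of both, the TATA box in 14.7% and 12.4%, and the GATA motif in 5.88% and 9.99%. Between members called higher (11 with a promoter) and lower (23), the SP/KLF motif was found in 8 and 13, the ETS motif in 3 and 6, the TATA box in 0 and 4, and the GATA motif in 1 and 2. A 10-base NRF1 motif and a 10-base YY1 motif were in 0 of the members' windows, against 0.782% and 0.301% of all promoters. The matches are letters in these windows and were not related to binding.

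Among the Mediator genes, the scaffold gene and a pair of kinase module genes stood above the others. Of the 29 tested, 5 (17.2%) were higher and 7 (24.1%) lower, against 20.4% and 17.8% of all genes, with a median log2 fold change of -0.11. The lower count dropped to 3 (10.3%, against 11.8% of all genes) when CHD4-APR replicate 2 was left out and to 4 (13.8%, against 12.8%) when replicate 1 was. It was 11 (37.9%) without CTRL replicate 2 or with upper quartile scaling, against 17.9% and 20.4% of all genes. In the trend-removed fit it was 6 (20.7%, against 12.7% of all genes) and the median was -0.0031. Med14 (on chromosome X from 12675369 to 12762073), whose protein joins the head, middle and tail, had 14.6, 17.1 and 16.2 normalized CPM in CTRL and 24.8, 26.8 and 23.8 in CHD4-APR. The groups did not overlap, and Med14 was 1.57-fold higher with the CHD4-APR peptide (log2 fold change 0.65 ± 0.075, FDR = 8.23e-06; errors of fold changes are SE from 3 libraries per group).

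Of the kinase module, Med13 and its paralog Med13l, alternative subunits that link the module to core Mediator, were higher and Med12 was not called. Med13 (on chromosome 11 from 86267033 to 86357602) had 128, 147 and 144 normalized CPM in CTRL and 213, 221 and 205 in CHD4-APR. Each CHD4-APR library exceeded each CTRL library, by 1.53-fold on average (log2 fold change 0.61 ± 0.052, FDR = 8.87e-07). Med13l had 73.9, 84.2 and 88.2 normalized CPM in CTRL and 117, 121 and 117 in CHD4-APR, again without overlap (log2 fold change 0.52 ± 0.057, FDR = 4.69e-06). Med12, which activates the kinase, had 80.7, 75.5 and 85.6 normalized CPM in CTRL and 85.7, 82.7 and 83.4 in CHD4-APR, so that the groups overlapped (log2 fold change 0.059 ± 0.051, FDR = 0.391). Summed per kilobase of exons, the tested genes of the module had 28.7 ± 1.48 normalized CPM per kb (SD, n = 3) in the CTRL group and 38.2 ± 0.802 in the CHD4-APR group, which is given without a test.

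The kinase partners, whose symbols are outside the rule, had smaller differences than Med13 and Med13l. Cdk19 had 59.6, 72.1 and 67.4 normalized CPM in CTRL and 85.2, 81.5 and 78.2 in CHD4-APR (log2 fold change 0.30 ± 0.062, FDR = 0.00124), and the cyclin gene Ccnc had 15.2, 19.3 and 18.0 normalized CPM in CTRL and 21.3, 22.5 and 21.9 in CHD4-APR (log2 fold change 0.32 ± 0.080, FDR = 0.00464). The CHD4-APR libraries were above the CTRL libraries for both genes. Cdk8 had 56.0, 57.4 and 62.1 normalized CPM in CTRL and 68.0, 64.8 and 60.6 in CHD4-APR, where the groups overlapped (log2 fold change 0.14 ± 0.056, FDR = 0.0579). Cdk8 was called higher without a filter on low counts and when CTRL replicate 3 or CHD4-APR replicate 3 was left out, with a lowest FDR of 0.0272 in those fits, and lower in the trend-removed fit (-0.15, FDR = 0.0330). There Cdk19 stayed higher (0.17, FDR = 0.0199) and Ccnc was not called (0.071, FDR = 0.455).

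Med1, the middle module subunit bound by nuclear receptors and GATA1, had 44.1, 46.9 and 49.5 normalized CPM in CTRL and 57.0, 57.0 and 58.8 in CHD4-APR. It was higher in each CHD4-APR library (log2 fold change 0.30 ± 0.053, FDR = 3.95e-04). Med26, which recruits elongation factors to the complex, had 16.4, 15.0 and 16.7 normalized CPM in CTRL and 15.9, 17.3 and 17.0 in CHD4-APR and was not called (log2 fold change 0.065 ± 0.073, FDR = 0.522). The other called middle subunits, Med10 and Med4, were lower, with log2 fold changes of -0.18 and -0.16. Med10 was not called without CHD4-APR replicate 1 or 2 (FDR = 0.0584 and 0.0646), nor Med4 without CTRL replicate 1 or 3 or CHD4-APR replicate 1 or 2 (FDR from 0.0719 to 0.208). Neither Med1 (0.12, FDR = 0.0617) nor Med10 (-0.11, FDR = 0.113) was called in the trend-removed fit, whereas Med26 was called higher (0.22, FDR = 0.0219). Most of Med10's exonic length, 92.8%, lies opposite a lincRNA gene. The counting is not stated to use strand and the library kit does not mark it, so reads from such overlapping genes cannot be told apart.

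Of the 11 head module genes, Med11, Med8, Med29 and Med28 (36.4%) were lower and Med17 (9.09%) was higher, against 17.8% and 20.4% of all genes. Without CHD4-APR replicate 2 the lower count was 2 (18.2%, against 11.8% of all genes). Med11 had 12.3, 10.8 and 11.8 normalized CPM in CTRL and 9.35, 9.57 and 9.76 in CHD4-APR, with all CHD4-APR libraries below the CTRL libraries (log2 fold change -0.28 ± 0.082, FDR = 0.0127). The others had log2 fold changes of -0.25 for Med8 (FDR = 5.67e-04), -0.21 for Med29 and -0.19 for Med28. Med17, the subunit around which the head is built, had a log2 fold change of 0.14 (FDR = 0.0215). The call of Med28 was lost without CHD4-APR replicate 2 (FDR = 0.0799), that of Med29 without CTRL replicate 3 or CHD4-APR replicate 1 or 2 (0.0621 to 0.129), and that of Med17 without CTRL replicate 3 or CHD4-APR replicate 2 or 3 (0.0621 to 0.10). In the trend-removed fit Med11 (-0.092, FDR = 0.407), Med29 (-0.0093, FDR = 0.938) and Med17 (0.11, FDR = 0.0571) were not called, and Med8 and Med28 stayed lower. Of the 5 tail genes, Med16 was lower as counted (log2 fold change -0.23 ± 0.053, FDR = 0.00274) but not in the trend-removed fit (-0.11, FDR = 0.0767). Med15, Med23, Med24 and Med25 were not called, at -0.12, 0.15, -0.11 and -0.12, but Med15 was lower in the trend-removed fit (-0.35, FDR = 7.85e-05). With upper quartile scaling or without CTRL replicate 2, 4 of the 5 tail genes (80%) were called lower, against 20.4% and 17.9% of all genes. The summed level per kb of the head genes was 161 ± 2.51 normalized CPM in the CTRL group and 149 ± 3.35 in the CHD4-APR group.

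As counted, most genes of RNA polymerase II were lower in the CHD4-APR group. Of 13 genes, 8 (61.5%, against 17.8% of all genes) were lower, 1 was higher and 4 were not called, and 11 had a negative log2 fold change, with a median of -0.24. The trend-removed fit left 3 of 13 lower (23.1%, against 12.7% of all genes), with a median of -0.089, and 5 were lower without CHD4-APR replicate 2 (38.5%, against 11.8%). The summed level of the 13 genes per kb of exons was 342, 333 and 331 normalized CPM for CTRL and 296, 299.7 and 308 for CHD4-APR. The sums of the groups did not overlap, and they are given without a test.

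The 5 subunits that the enzyme shares with RNA polymerases I and III were each lower as counted, and 2 of them, Polr2k and Polr2f, in the trend-removed fit, where Polr2l, Polr2e and Polr2h had FDR values of 0.0508, 0.128 and 0.406. Polr2k, the smallest of these genes at 624 exonic bases (on chromosome 15 from 36174010 to 36177010), had 7.27, 8.28 and 7.15 normalized CPM in CTRL and 5.68, 5.45 and 6.52 in CHD4-APR. Its groups did not overlap (log2 fold change -0.36 ± 0.10, FDR = 0.0112), but the FDR rose to 0.0534 without CTRL replicate 2 and to 0.0586 without CHD4-APR replicate 2. Polr2l had 50.3, 42.9 and 45.9 normalized CPM in CTRL and 33.7, 37.5 and 40.7 in CHD4-APR, also without overlap (log2 fold change -0.31 ± 0.071, FDR = 0.00248). Polr2f, Polr2h and Polr2e had log2 fold changes of -0.27, -0.25 and -0.24. The call of Polr2h was lost without CTRL replicate 1, CHD4-APR replicate 1 or CHD4-APR replicate 2, at FDR values of 0.0728, 0.0524 and 0.0758.

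Among the 5 smaller subunits found in RNA polymerase II alone, Polr2i and Polr2j were lower as counted. In the trend-removed fit neither was called (-0.11, FDR = 0.235 for Polr2i and -0.091, FDR = 0.176 for Polr2j). Polr2i had 23.7, 19.4 and 20.7 normalized CPM in CTRL and 17.0, 16.1 and 17.7 in CHD4-APR (log2 fold change -0.33 ± 0.079, FDR = 0.00380). Polr2j had 49.6, 44.2 and 44.8 normalized CPM in CTRL and 36.5, 35.8 and 39.4 in CHD4-APR (log2 fold change -0.31 ± 0.061, FDR = 7.78e-04). In both genes the highest CHD4-APR library was under the lowest CTRL library. Exons of the opposite-strand genes Tbcb and Lrwd1 cover 26.8% of Polr2i and 15.9% of Polr2j. Polr2c, Polr2d and Polr2g were not called, with log2 fold changes of -0.10, -0.019 and -0.12.

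The genes of the largest subunits, which form the active centre, went in opposite directions. Polr2a, which carries the C-terminal repeat domain, had 314, 323 and 318 normalized CPM in CTRL and 297, 291 and 291 in CHD4-APR. It was lower by a small amount in each CHD4-APR library (log2 fold change -0.12 ± 0.040, FDR = 0.0269). The call was lost when CTRL replicate 2 or 3 or any 1 CHD4-APR library was left out, with FDR values of 0.0574 to 0.124. Polr2b, the second largest subunit, had 56.5, 67.7 and 63.7 normalized CPM in CTRL and 71.5, 75.1 and 73.2 in CHD4-APR and was higher in each CHD4-APR library (log2 fold change 0.23 ± 0.059, FDR = 0.00651). Polr2m, which encodes the Gdown1 protein associated with the polymerase, had 99.8, 106 and 105 normalized CPM in CTRL and 104, 103 and 104 in CHD4-APR, with overlapping groups (log2 fold change 0.0049 ± 0.044, FDR = 0.945).

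Per kb of exons, Polr2a had the highest level of the polymerase genes in the CTRL group, 45.0 ± 0.619 normalized CPM per kb, followed by Polr2m with 42.7 ± 1.35 and by Polr2j. The libraries of Polr2a (44.4 to 45.6) lay above those of Polr2m (41.2 to 43.6), whereas Polr2j (39.96 to 44.9) overlapped both. Polr2k (12.1 ± 0.997) and Polr2h (8.14 ± 0.537) had the lowest levels. In the CHD4-APR group, Polr2m had 42.9 ± 0.197, Polr2a 41.5 ± 0.452, and the highest library of Polr2j, 35.7, was below the lowest of Polr2a, 41.2. The lengths are unions of annotated exons, and transcripts used in these cells may be shorter.

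**Figure D2:**
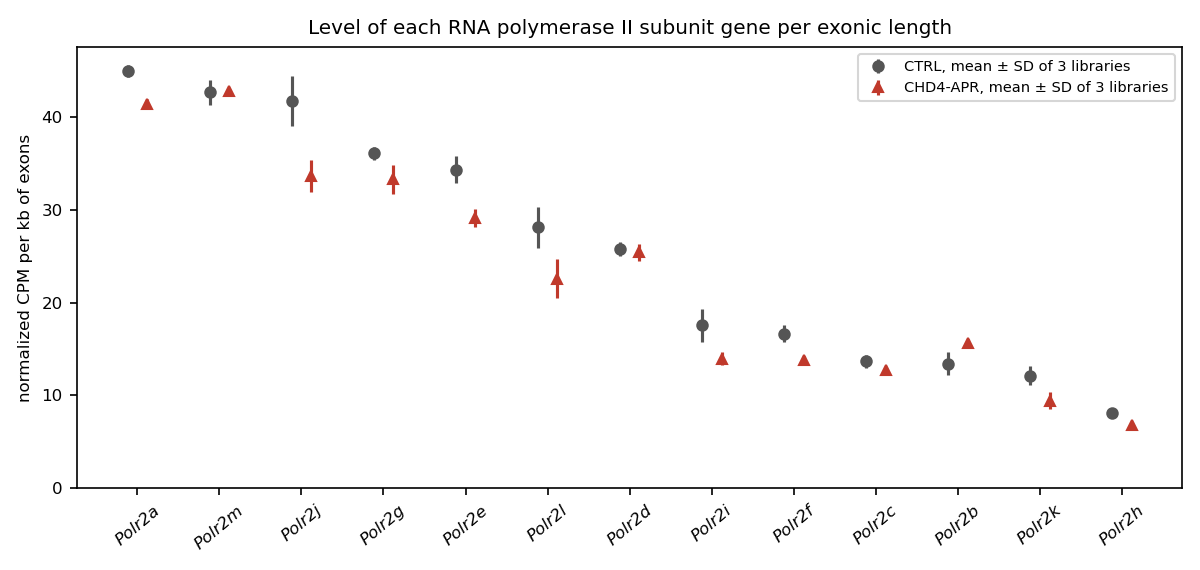
Level of each of the 13 RNA polymerase II subunit genes in normalized CPM per kb of exonic length (y axis, mean ± SD of 3 libraries), with CTRL as grey circles and CHD4-APR as red triangles, in the order of the CTRL level. The CHD4-APR mean is below the CTRL mean for 11 genes and above it for Polr2b and Polr2m.

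Among the general transcription factors, both TFIIE genes were higher and both TFIIF genes lower as counted. In the trend-removed fit Gtf2e2 stayed higher, whereas Gtf2e1 (0.080, FDR = 0.405), Gtf2f1 (-0.10, FDR = 0.0666) and Gtf2f2 (-0.075, FDR = 0.278) were not called. Of 12 tested, 3 (25%) were higher and 4 (33.3%) lower, against 20.4% and 17.8% of all genes. The lower count was 2 (16.7%, with 11.8% to 17.9% of all genes lower) when any 1 library other than CTRL replicate 1 was left out. The median log2 fold change was 0.019 as counted, -0.00073 without CHD4-APR replicate 3, and -0.087 in the trend-removed fit, where 1 (8.33%) was higher and 2 (16.7%) lower, against 13.7% and 12.7% of all genes. TFIIE brings TFIIH to the promoter. Of its genes, Gtf2e1 had 12.7, 15.0 and 14.4 normalized CPM in CTRL and 17.7, 17.4 and 16.9 in CHD4-APR, with all CHD4-APR libraries above the CTRL libraries (log2 fold change 0.30 ± 0.077, FDR = 0.00500), and Gtf2e2 had a log2 fold change of 0.18 (FDR = 0.00396). TFIIF escorts the polymerase, and its genes had log2 fold changes of -0.28 for Gtf2f1 and -0.15 for Gtf2f2. Gtf2f1 had the highest level per length of all members, 134 ± 9.63 normalized CPM per kb in the CTRL group and 110.0 ± 3.44 in the CHD4-APR group.

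Of the 5 TFIIH genes, Gtf2h5 and Gtf2h4 were lower. Gtf2h5, the smallest subunit of the complex, had 72.5, 69.5 and 64.8 normalized CPM in CTRL and 58.5, 56.1 and 60.6 in CHD4-APR and no overlap (log2 fold change -0.24 ± 0.053, FDR = 0.00210). Gtf2h4 had a log2 fold change of -0.19 (FDR = 0.0299). Gtf2h4 and Gtf2f2 both lost their calls when any 1 library other than CTRL replicate 1 was left out, with FDR values of 0.0509 to 0.137. Gtf2h5 stayed lower in the trend-removed fit (-0.37, FDR = 1.32e-04) and Gtf2h4 was not called (-0.054, FDR = 0.570). The helicase, kinase and assembly genes of TFIIH, Ercc2, Ercc3, Cdk7, Ccnh and Mnat1, had log2 fold changes between -0.12 and 0.061, and 0 of 5 were called by edgeR, DESeq2 or limma-voom, with 0 at an unadjusted p under 0.05. Mnat1 was lower in the trend-removed fit (-0.32, FDR = 0.00211). Gtf2b, the single gene of TFIIB, had 72.4, 67.0 and 70.4 normalized CPM in CTRL and 71.2, 70.8 and 73.8 in CHD4-APR, with overlapping groups (log2 fold change 0.042 ± 0.048, FDR = 0.533). In TFIIA, Gtf2a1 was higher as counted (log2 fold change 0.23 ± 0.059, FDR = 0.00575) and at -0.021 in the trend-removed fit, and Gtf2a2 was not called (0.0033).

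Of the 22 TAF genes tested, 6 (27.3%) were higher and 6 lower, against 20.4% and 17.8% of all genes. Their median log2 fold change was 0.0083, which turned to -0.0088 with upper quartile scaling and to -0.012 in the trend-removed fit, where 3 (13.6%) were higher and 4 (18.2%) lower, against 13.7% and 12.7% of all genes. It was also below 0 without CTRL replicate 1, CTRL replicate 3 or CHD4-APR replicate 2, down to -0.0085. All 6 higher genes belong to TFIID. Taf4b, the paralog of Taf4 best known from germ cells, was the one that differed most among called TAF genes, at a low level. It had 2.03, 2.37 and 2.37 normalized CPM in CTRL and 3.40, 3.21 and 3.60 in CHD4-APR, without overlap (log2 fold change 0.59 ± 0.14, FDR = 0.00304). Taf2, a subunit that contacts core promoter DNA, had 37.2, 46.0 and 43.5 normalized CPM in CTRL and 53.7, 56.4 and 52.7 in CHD4-APR (log2 fold change 0.36 ± 0.067, FDR = 5.48e-04). Taf7, a regulator of the Taf1 subunit, had 28.7, 34.3 and 28.9 normalized CPM in CTRL and 37.2, 39.1 and 37.4 in CHD4-APR (log2 fold change 0.31 ± 0.069, FDR = 0.00224). For Taf2 and Taf7, too, each CHD4-APR library was above each CTRL library. Taf4 (0.22), Taf1, the largest subunit (0.21), and Taf9b (0.21) were the other higher genes. Of these, Taf7 (0.15, FDR = 0.0588), Taf9b (0.13, FDR = 0.152) and Taf1 (-0.037, FDR = 0.535) were not called in the trend-removed fit.

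Taf10, Taf12 and Taf6, histone-fold subunits of TFIID, were lower as counted, and Taf10 and Taf12 also in the trend-removed fit, where Taf6 was not called (-0.11, FDR = 0.0870). Taf10, also a part of SAGA (on chromosome 7 from 105739393 to 105744361), had 89.2, 78.9 and 82.9 normalized CPM in CTRL and 71.1, 66.5 and 67.9 in CHD4-APR, with the highest CHD4-APR library under the lowest CTRL library (log2 fold change -0.29 ± 0.053, FDR = 4.78e-04). Of its exonic length, 45.9% is also covered by exons of Ilk on the opposite strand. Taf12 had a log2 fold change of -0.23, and Taf6 of -0.20. Exons of opposite-strand genes, Ap4m1 and Dnaaf1, cover 26.5% of Taf6 and 16.7% of Taf1c. Outside TFIID, the SAGA subunit gene Taf6l (-0.17), Taf1c of the RNA polymerase I factor SL1 (-0.16) and Taf15, which encodes an RNA-binding protein of the FET family (-0.18), were lower, whereas Taf1a, Taf1b and Taf1d were not called. Taf1c lost its call without CTRL replicate 3 or CHD4-APR replicate 2 or 3 (FDR from 0.0801 to 0.0953). In the trend-removed fit Taf6l stayed lower, but its FDR as counted rose to 0.0501 without CHD4-APR replicate 3, and Taf1c (-0.012, FDR = 0.856) and Taf15 (-0.12, FDR = 0.132) were not called. Taf15 had overlapping groups, and its call was lost without CTRL replicate 1 or 2 or CHD4-APR replicate 1 or 2, at FDR values of 0.0728 to 0.146. Taf3, Taf5, Taf8, Taf11 and Taf13 had log2 fold changes between -0.15 and 0.015 and were not called. TBP itself, coded by Tbp, had 19.2, 22.5 and 22.2 normalized CPM in CTRL and 25.4, 25.3 and 25.8 in CHD4-APR, above the CTRL libraries in each CHD4-APR library (log2 fold change 0.26 ± 0.069, FDR = 0.00754), but was at -0.057 in the trend-removed fit (FDR = 0.509).

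**Figure D3:**
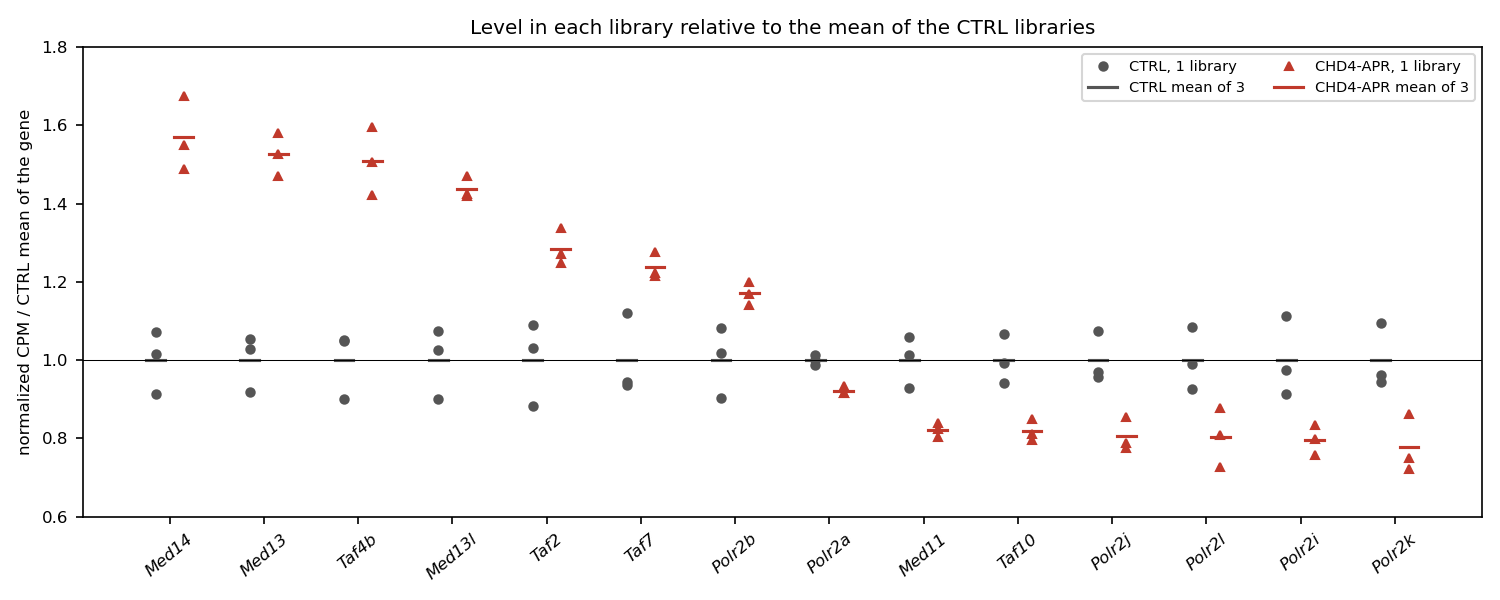
Normalized CPM in each of the 3 CTRL (grey circles) and 3 CHD4-APR libraries (red triangles) divided by the gene's mean in the CTRL group (y axis, which starts at 0.6), for 14 members, with short bars at the group means. The CHD4-APR points of Med14, Med13, Taf4b and Med13l lie between 1.42 and 1.67 and those of Polr2k, Polr2i, Polr2l and Polr2j between 0.720 and 0.877, with no overlap between the groups.

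Members that exist as a pair of paralogs were compared within each library, for the 5 pairs in which both genes were tested. The log2 ratio of Med13 to Med13l was 0.77 ± 0.057 (SD, n = 3) in the CTRL group and 0.85 ± 0.034 in the CHD4-APR group, a difference of 0.083 (exact permutation test, two-sided, p = 0.1, adjusted p = 0.25 over 5 pairs). The log2 ratio of Taf4 to Taf4b was 4.33 ± 0.10 and 3.96 ± 0.12, a difference of -0.37 (exact permutation p = 0.1, adjusted p = 0.25). In both pairs the ratios of the groups did not overlap, and with 3 against 3 libraries 0.1 is the smallest p this test can give. The ratios were not tested with the length and GC trend removed. In the trend-removed fit Med13 had the smaller log2 fold change of its pair, 0.29 against 0.40 for Med13l, the reverse of the order as counted. There Taf4 was at 0.33 and Taf4b at 0.48. Per kb of exons, Med13 had 2.43 times the level of Med13l in the CTRL group and Taf4 22.4 times that of Taf4b.

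The other 3 pairs had overlapping ratios. Taf5 had 10.4, 10.3 and 11.1 normalized CPM in CTRL and 10.2, 11.1 and 10.6 in CHD4-APR and Taf5l 37.6, 42.9 and 39.0 normalized CPM in CTRL and 39.5, 41.1 and 41.0 in CHD4-APR. The log2 ratio of Taf5 to Taf5l differed by -0.021 between the groups (exact permutation p = 0.9, adjusted p = 0.9). Taf6 had 59.7, 54.2 and 56.3 normalized CPM in CTRL and 48.0, 48.8 and 51.2 in CHD4-APR and Taf6l 79.8, 75.3 and 79.1 normalized CPM in CTRL and 70.6, 69.3 and 68.2 in CHD4-APR, so both were lower in each CHD4-APR library, and their log2 ratio differed by -0.031 (exact permutation p = 0.5, adjusted p = 0.625). Without CHD4-APR replicate 3, Taf6l had an FDR of 0.0501.

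Taf9 had the largest fold change of all members but was not called. It had 0.283, 0.324 and 0.266 normalized CPM in CTRL and 0.537, 0.328 and 0.635 in CHD4-APR (log2 fold change 0.78 ± 0.36, FDR = 0.102), from 11 to 30 counts per library. Exons of Ak6 on the same strand cover 73.8% of its exonic length. Taf9b had 17.4, 20.3 and 20.6 normalized CPM in CTRL and 22.8, 23.1 and 21.5 in CHD4-APR (log2 fold change 0.21 ± 0.073, FDR = 0.0341), and its call was lost without CTRL replicate 1, CHD4-APR replicate 1 or CHD4-APR replicate 2, at FDR values of 0.134, 0.0834 and 0.109. The log2 ratio of Taf9 to Taf9b differed by 0.52 (exact permutation p = 0.3, adjusted p = 0.5).

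Over the members as a whole, the direction of the differences went with the length and base composition of the transcripts. The 15 higher members had a median exonic length of 6241 bases and a median GC content of 43.9%, and the 25 lower members 3001 bases and 52.6%. Across the 76 members, the log2 fold change had a Spearman correlation of 0.40 with length and of -0.50 with GC content, and across 12677 genes of 0.41 and -0.46. By family, the correlation with length was 0.033 for the 22 TAF genes and 0.36 to 0.51 for the others, and that with GC content ran from -0.63 for the general factors to -0.29 for the polymerase. Genes are not independent replicates and share the same 6 libraries, so these are descriptions. Med13l, at 15427 bases and 51.7% GC, was the longest tested member, and Polr2k was the shortest. The part of length and GC content in the differences was not tested directly, but the trend-removed fit gives the values without them.

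**Figure D4:**
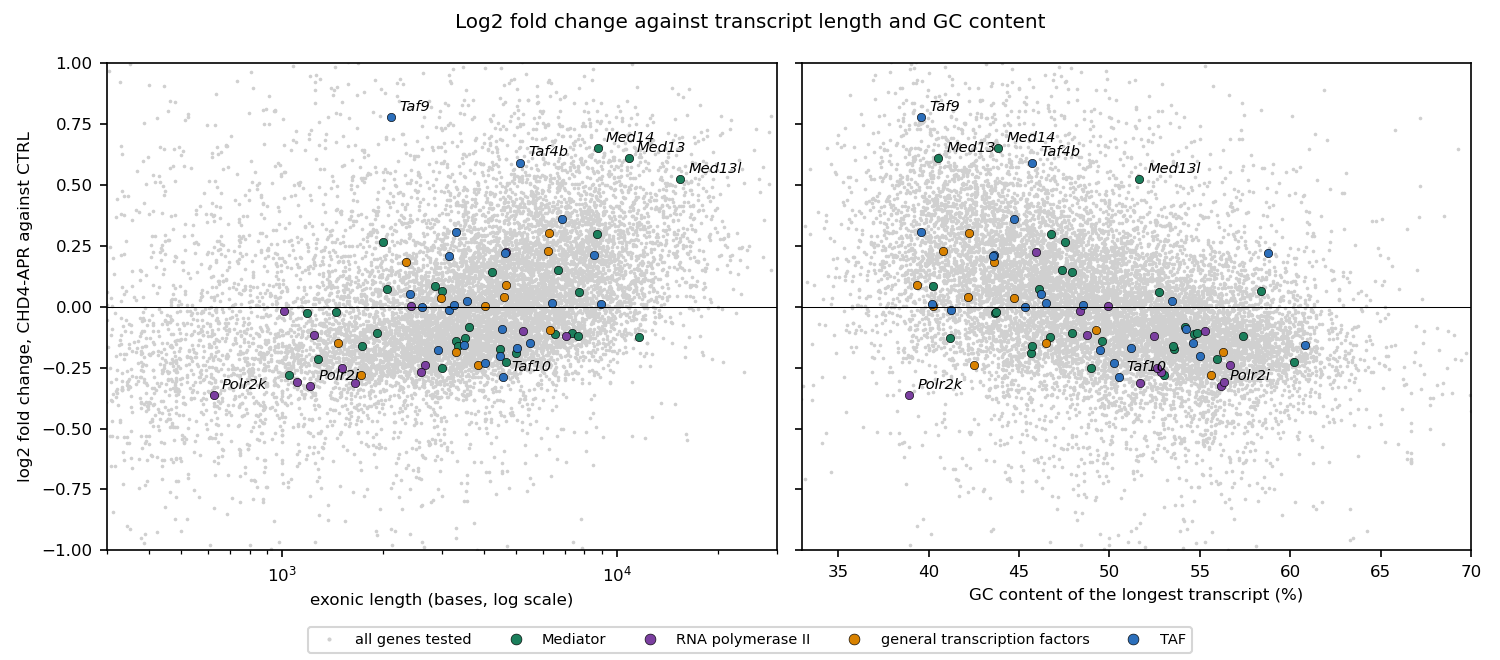
Log2 fold change (y axis) against exonic length in bases (left, log scale) and GC content of the longest transcript in percent (right) for all genes tested (grey; 430 of 12677 lie outside the plotted ranges) and the members, coloured by family. The members follow the slope of the grey cloud, with Spearman correlations of 0.40 with length and -0.50 with GC content over the 76 members.

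Of the 40 members called as counted, 18 kept their call in the trend-removed fit, 8 of them higher and 10 lower, and 0 were called in the opposite direction. Med14 (0.40, FDR = 2.33e-04), Med13 (0.29, FDR = 3.21e-05), Med13l (0.40, FDR = 4.33e-05) and Taf4b (0.48, FDR = 0.0139) stayed higher, with smaller log2 fold changes. Taf4 went from 0.22 to 0.33, and Taf2, Polr2b and Gtf2e2 also stayed higher. The 7 higher members that lost their call were Med1, Med17, Taf7, Taf9b, Gtf2e1, Taf1 and Gtf2a1, and the last pair turned below 0. Of the kinase partners, Cdk8 turned to -0.15 (FDR = 0.0330). Cdk19 remained higher (0.17) and Ccnc was not called (0.071).

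Of the polymerase genes, Polr2a (-0.13, FDR = 0.00572), Polr2k (-0.33, FDR = 0.0168) and Polr2f (-0.14, FDR = 0.0346) stayed lower and Polr2b (0.14, FDR = 0.0450) stayed higher. The 15 lower members that lost their call were Polr2e, Polr2h, Polr2i, Polr2j, Polr2l, Med10, Med11, Med16, Med29, Gtf2f1, Gtf2f2, Gtf2h4, Taf1c, Taf6 and Taf15. Taf10 (-0.28), Taf12 (-0.21), Taf6l, Gtf2h5 (-0.37), Med28 (-0.30), Med8 (-0.21) and Med4 remained lower. Another 7 members, not called as counted, were called in this fit: Med26 (0.22) and Med19 as higher, and Med15 (-0.35), Taf1d (-0.30), Med21, Med20 and Gtf2a2 as lower.

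**Figure D5:**
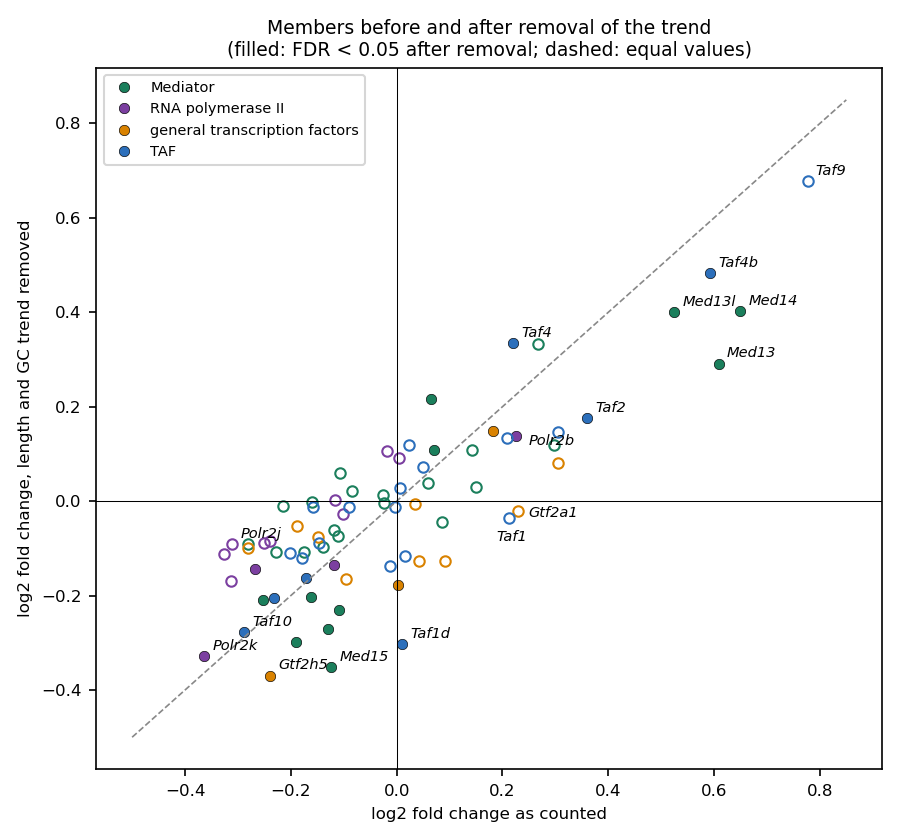
Log2 fold change of the 76 members as counted (x axis) and with each library's trend in length and GC content removed (y axis), coloured by family and filled where the FDR was under 0.05 after removal (10 higher and 15 lower). Med14, Med13, Med13l and Taf4b stay at the upper right, the lower polymerase genes other than Polr2a lie nearer to 0 on the y axis than on the x axis, and Taf1 and Gtf2a1 cross it.

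Other genes of the same pathway, from lists outside the rule, were read beside the members. Of 61 tested, 15 (24.6%) were higher and 12 (19.7%) lower, near the 20.4% and 17.8% of all genes, with a median log2 fold change of -0.0087. The trend-removed fit called 11 (18%) higher and 6 (9.84%) lower, against 13.7% and 12.7% of all genes. Leaving out CHD4-APR replicate 2 gave 7 lower (11.5%, against 11.8% of all genes), and leaving out replicate 1 gave 8 (13.1%, against 12.8%), so the lower counts were near or under the general share. The 3 genes of the TBP family list, Tbp, Tbpl1 and Btaf1, were all higher as counted, but in the trend-removed fit Tbpl1 (0.11, FDR = 0.0669) and Tbp were not called. Btaf1, an ATPase that takes TBP off DNA, had 147, 166 and 168 normalized CPM in CTRL and 242, 242 and 236 in CHD4-APR (log2 fold change 0.58 ± 0.050, FDR = 8.87e-07). Of 26 pausing and elongation genes, 8 (30.8%) were higher and 8 lower as counted, and 7 (26.9%) and 3 (11.5%) in the trend-removed fit, against 13.7% and 12.7% of all genes. Without CHD4-APR replicate 1 or 2, 5 (19.2%) were lower, against 12.8% and 11.8%. Ell2, a subunit of the super elongation complex, had 59.5, 65.7 and 65.0 normalized CPM in CTRL and 101, 93.9 and 94.5 in CHD4-APR (log2 fold change 0.60 ± 0.051, FDR = 8.87e-07), and Aff4, the scaffold of that complex, 80.7, 89.6 and 90.4 normalized CPM in CTRL and 142, 129 and 117 in CHD4-APR (log2 fold change 0.57 ± 0.063, FDR = 4.94e-06). Neither Btaf1 nor Ell2 nor Aff4 had any overlap between the groups, and in the trend-removed fit they stayed higher with smaller log2 fold changes, 0.30, 0.28 and 0.28. Cdk9, the kinase that releases paused polymerase, had 72.9, 61.7 and 63.8 normalized CPM in CTRL and 64.9, 57.5 and 59.7 in CHD4-APR with overlapping groups (log2 fold change -0.12 ± 0.063, FDR = 0.142). With 1 library left out its log2 fold change ranged from -0.17 to -0.048, and 1 of these fits called Cdk9 lower (FDR = 0.0482).

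Of 19 genes particular to RNA polymerases I and III, 2 (10.5%) were higher and 4 (21.1%) lower, against 20.4% and 17.8% of all genes, with a median of -0.056. In the trend-removed fit 0 were higher and 1 (5.26%) lower, against 13.7% and 12.7% of all genes. With upper quartile scaling 1 (5.26%) was higher and 6 (31.6%) lower, against 19% and 20.4%. Without CHD4-APR replicate 2 the counts were 2 (10.5%) and 2 (10.5%), against 16.8% and 11.8%. When any 1 library other than CTRL replicate 2 and CHD4-APR replicate 2 was left out, 1 (5.26%) was higher, against 17.3% to 18.3%. Of the 6 genes for phosphatases of the polymerase tail, Ctdspl was at 0 counts and 0 of the other 5 were called by edgeR, DESeq2 or limma-voom, with 1, Ctdsp1, at an unadjusted p under 0.05 in edgeR (log2 fold change -0.11 ± 0.046, FDR = 0.0822). With upper quartile scaling 1 of the 5 (20%), Ctdsp1, was called lower, against 20.4% of all genes. Ctdp1 (0.15, FDR = 0.0432) and Ctdsp2 (0.10, FDR = 0.0292) were higher in the trend-removed fit.

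The calls that rested least on the processing were those of 13 members. Gtf2e2, Med13, Med13l, Med14, Polr2b, Taf2, Taf4 and Taf4b were higher and Gtf2h5, Med8, Polr2f, Taf10 and Taf12 lower in each alternative fit, those without 1 library and those without the length and GC trend included. The alternatives did not change how reads were assigned to genes, and exons of Ilk cover 45.9% of Taf10 on the opposite strand. Of the 40 called members, 26 were called in each of the 6 fits that left out 1 library.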

How the data were processed

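The authors trimmed the reads with Cutadapt, aligned them to GRCm38 with STAR 2.7.10a and made the table with featureCounts. The deposited values are raw counts per gene. The strandedness of the counting and its treatment of reads matching several genes are not given in the sources used here. The table has 2 further columns that match no sample and were not used. GENCODE M21 named 48349 of the 48709 identifiers. Exonic length is the union of a gene's annotated exons, and GC content was taken from its longest transcript.

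Counts of the 3 libraries per group were filtered with filterByExpr (12722 genes left), scaled by TMM and compared by the quasi-likelihood F-test of edgeR 4.0.16 in R 4.3.3, with Benjamini-Hochberg adjustment over all genes tested and a threshold of 0.05. The standard error is the fold change over the root of F. Each pair of replicates differed by more than sampling noise. In the fit without the trend, each library's log2 CPM (prior count of 2) were smoothed on length and GC content by loess and the trend entered as offsets. Paralog ratios were compared by the exact permutation test. The procedures were tested on simulated data.

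The members, lists and tests were chosen with earlier results of these data known. Values in every library are given for the kinase module genes, Med14, Med1, Med26, Polr2a, Polr2b and the extremes of the other polymerase genes, the 6 largest and 6 smallest fold changes among called members without overlap, the TFIIB, TFIIE and TFIIH members that differed most, the paralog pairs, Tbp, Cdk8, Cdk19, Ccnc, Cdk9 and the 3 largest called changes of the other lists. The alternatives were DESeq2 1.42.0, limma-voom (limma 3.58.1), RLE and upper quartile scaling, no filter or at least 10 counts in every library, leaving out the hemoglobin genes, a replicate block, the length and GC trend with and without the block, an FDR under 0.01 and leaving out each library. Leaving out members that overlap another gene was added after seeing the data. Promoters are from RefSeq.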

Additional observations from a re-analysis of the deposited data

How the results depend on the processing

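DESeq2, limma-voom, RLE scaling, a minimum of 10 counts in every library and removal of the hemoglobin genes each kept all 40 called members, with 15 higher and 25 lower. Upper quartile scaling called 29 (38.2%) lower, against 20.4% of all genes, and 21 (27.6%) were lower without a filter, against 10.6%. The number of lower members was 15 (19.7%, against 12.7% of all genes) with the length and GC trend removed. It was 14 (18.4%, against 11.8%) to 24 (31.6%, against 17.9%) when 1 library was left out. At an FDR under 0.01 it was 13, for which the share of all genes was not computed. The number of higher members was 10 (13.2%, against 13.7% of all genes) with the trend removed. With 1 library left out it was 13 (17.1%, against 16.8%) to 15 (19.7%, against 20.2%). Of the 63 members left without those that overlap another gene by over 10% of their length, an alternative chosen after seeing the data, 15 (23.8%) were higher and 19 (30.2%) lower, near the 19.7% and 32.9% of all 76. Of the 61 genes outside the rule, 27 were called as counted and 17 with the trend removed, where 38.3% and 26.5% of all genes were called. With 1 library left out, 22 to 29 of them were called.

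The replicate numbers did not pair the libraries consistently. Deviations of libraries with the same number had weak correlations of 0.070, 0.055 and -0.035. Libraries 1 and 2 of each group correlated best with their own number, and libraries 3 did not. With the replicate block, 16 members (21.1%) were higher and 26 (34.2%) lower, against 21.5% and 19.5% of all genes, and Cdk8 was called higher. With both the trend removed and the block, 13 (17.1%) were higher and 20 (26.3%) lower, against 15.7% and 15.4% of all genes. The family medians were -0.0037 for Mediator, -0.088 for the polymerase, -0.086 for the general factors and -0.013 for the TAF genes. Of the general factors, 5 (41.7%) were then lower instead of 2 (16.7%), with Gtf2b, Gtf2h3 and Gtf2f1 called. Outside the rule 10 genes (16.4%) were lower instead of 6 (9.84%), with 7 (26.9%) instead of 3 (11.5%) of the pausing and elongation genes. The share of all genes lower was 15.4% with the block and 12.7% without it. In that fit Cdk8 was at -0.15, Gtf2a1 at -0.020, Gtf2b at -0.13, Taf1 at -0.037 and Tbp at -0.057. 

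With the trend removed and no block, the medians were -0.0031, -0.089, -0.087 and -0.012, and the same 5 genes were at -0.15, -0.021, -0.13, -0.037 and -0.057. Upper quartile scaling gave -0.0088 for the TAF median, -0.012 for Polr2m and -0.011 for Taf5. With 1 library left out, the median ranged from -0.11 to -0.080 for Mediator, from -0.26 to -0.20 for the polymerase, from -0.00073 to 0.040 for the general factors and from -0.0085 to 0.038 for the TAF genes. Over the same fits Polr2m ranged from -0.022 to 0.019, Taf5 from -0.024 to 0.038 and Taf5l from -0.017 to 0.080, and the differences in log2 ratio ranged from -0.093 to 0.025 for Taf5 to Taf5l and from -0.071 to 0.0023 for Taf6 to Taf6l. The cause of these changes was not tested. Taf9 rests on 11 to 30 counts per library.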
